A study of Mus musculus with 6 samples.

Results

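The genes described here are the numbered Zfp zinc finger genes of the mouse that were well expressed in electroporated cortical cells. They were taken as the rows whose symbol is Zfp followed by digits alone and whose mean level was a log2 CPM of 3 or more, where CPM is the count of a gene scaled to a fixed library total, so 8 CPM. Of 332 numbered Zfp genes among the 21937 rows of the table, 245 met the level condition and 87 lay below it. The members were thus chosen by the deposited mean level. Zfp318, Zfp120 and Zfp146 were selected on the fold changes and adjusted p-values of the same comparison, as the members that the authors called, so their difference from the others is a description and not a test.

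Neuronal progenitors in the embryonic mouse cortex received a plasmid for a control shRNA (NTC, 3 libraries) or for an shRNA against Nat14 (shNat14, 3 libraries) by in utero electroporation at embryonic day 14.5. Live GFP-positive cortical cells were sorted 4 days later, at embryonic day 18.5, and their RNA was sequenced. The sources used here do not give the strain, the plasmid promoter or the number of embryos behind a library. The p-values therefore cover the variation among 6 libraries, which could be technical only. The file used is the authors' own comparison of both groups, with 1 fold change, 1 mean level, 1 p-value and 1 adjusted p-value per gene and no values per library, so no SD can be given and the depth is unknown.

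A positive fold change means a higher level in shNat14 than in NTC. The table does not state this direction, and it was read from Nat14 itself, which stands in the authors' deposited table at -3.31 on the log2 scale with an adjusted p of 1.2e-08. Its sign is therefore no separate check of the labels. Of 8 markers of excitatory cortical neurons, 7 lay at a log2 CPM of 3 or more in the authors' deposited table, with Neurod6 at 11.3, Dcx at 9.82 and Slc17a7, a late marker, at -1.55. All 6 progenitor markers lay above that level, as did 5 of 6 astrocyte markers and 1 of 6 microglia markers. In the authors' deposited table all 6 astrocyte and all 6 microglia markers had a negative log2 fold change, with medians of -1.10 and -1.52, whereas markers of excitatory neurons had a median of 0.07 and progenitor markers of -0.20. Of 5 interneuron markers 4 were negative with a median of -0.67, and 4 of 5 of the oligodendrocyte lineage with a median of -0.47. All 4 endothelial and all 3 choroid plexus markers were positive, with medians of 1.43 and 1.16, most of them below a log2 CPM of 3. Of all these markers only the astrocyte marker Agt was called, at -6.33 and a log2 CPM of 0.98 in the authors' deposited table. Among all rows at a log2 CPM of 3 or more 0.152% were called. In such bulk samples fewer cells of a type and less RNA per cell cannot be told apart. The part of these cell types in the values of the Zfp genes was not tested.

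A zinc finger of the C2H2 kind is a short protein fold in which a pair of cysteines and a pair of histidines hold a zinc ion. Tandem arrays of such fingers read DNA, and in mammals many of them are joined to a KRAB box, which recruits the corepressor Trim28 (KAP1) and with it the histone methyltransferase Setdb1 and HP1 proteins. These KRAB zinc finger genes lie in clusters that grew by duplication, and many of them silence transposable elements. Some other numbered Zfp genes act in RNA binding, ribosome rescue or the mitotic spindle.

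The coding sequences of the genes differ in their fingers and in the KRAB box. All 245 members matched the GENCODE M21 annotation, and 244 had a complete coding transcript there, Zfp353 being the exception. Counting the codon pattern of a C2H2 finger in frame gave a median of 11 fingers, with 36 in Zfp142 and none in Zfp935, Zfp330, Zfp259 and Zfp781. A KRAB box was found in 137 members and not in 107. Zfp120 is a KRAB gene with 9 fingers in 436 codons. Zfp146, also known as OZF, consists of little but its fingers, 10 in 292 codons, and has no KRAB match. Zfp318 has no KRAB match either, and only 2 fingers in 2237 codons. It is known as a nuclear protein that B cells need to make the IgD transcript.

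One finger of each gene is shown to make the contrast visible, as the coding strand from GENCODE transcripts, with the cysteine and histidine codons in capitals. The Zfp318 finger lies in an exon at chr17:46409145-46409213 on the plus strand of GRCm38, the Zfp120 finger in an exon at chr2:150117414-150117491 on the minus strand, and the Zfp146 finger in an exon at chr7:30162235-30162312 on the minus strand. The last 15 bases of the Zfp120 and Zfp146 fingers encode the linker that joins one finger to the next.
Zfp318: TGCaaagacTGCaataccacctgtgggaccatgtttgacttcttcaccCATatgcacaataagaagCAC
Zfp120: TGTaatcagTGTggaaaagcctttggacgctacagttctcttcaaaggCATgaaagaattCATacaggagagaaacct
Zfp146: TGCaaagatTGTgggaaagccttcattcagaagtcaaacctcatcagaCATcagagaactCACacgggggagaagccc

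In the authors' deposited table Zfp318 rose by 2.42 (log2), which is 5.35 times the control level (adjusted p = 1.2e-08), at a mean log2 CPM of 6.05. The table gives no errors, but a p-value and a fold change together imply one. If the p came from a two-sided normal test, the standard error was 0.34 and an approximate 95% interval ran from 3.37 to 8.49 times. Among all rows of the table Zfp318 had the p of rank 2. It was the member with the largest positive fold change, at rank 85 of the 245 by level.

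Zfp120 rose by 1.19 (log2) in the authors' deposited table, 2.29 times the control level (adjusted p = 0.0148), at a mean log2 CPM of 7.05. Its implied standard error was 0.28, with an approximate 95% interval from 1.57 to 3.33 times. By level it stood at rank 40 of the 245. In size its fold change was at rank 4 among the positive ones, behind Zfp318 and 2 members that were not called, Zfp367 and Zfp708.

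Zfp146 fell to 15.1% of the control level, -2.73 in log2 fold change, in the authors' deposited table (adjusted p = 0.0026). It had the lowest fold change of the family. Its mean log2 CPM of 3.23 put it at rank 238 of the 245, near the lower limit, so that its implied standard error was larger, 0.57, and the approximate 95% interval ran from 6.92 to 32.8% of control. A fitted fold change at this level can depend on a prior count. The sources used here do not say whether one was used.

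**Figure D1:**
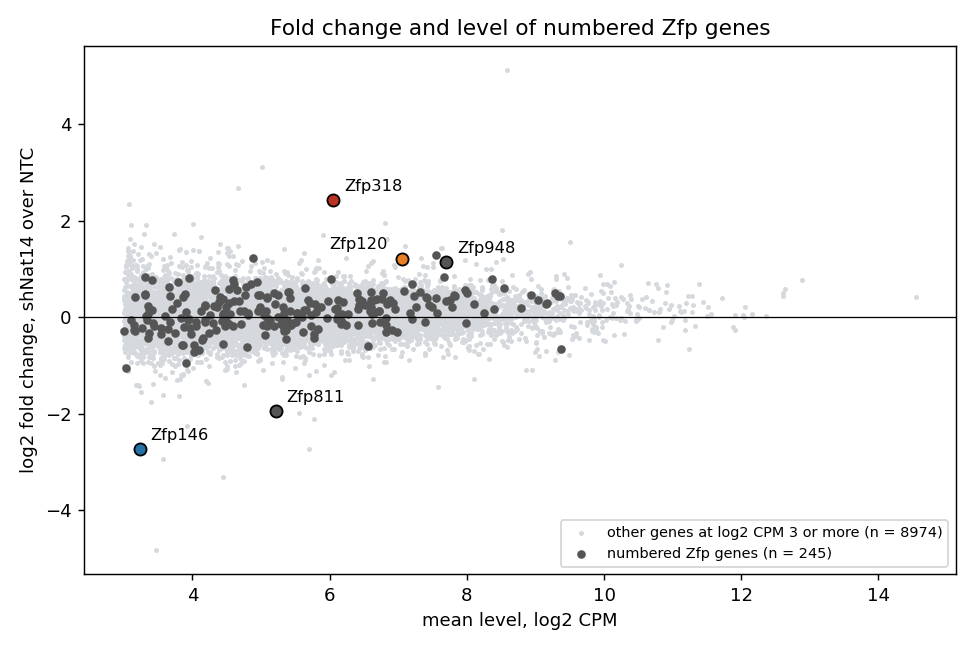
Log2 fold change (shNat14 over NTC) against mean level (log2 CPM) in the authors' deposited table, for 245 numbered Zfp genes (dark points) and 8974 other genes at a log2 CPM of 3 or more (grey). Zfp318 at 2.42, Zfp811 at -1.94 and Zfp146 at -2.73 lie outside the band of the family, and Zfp120 at 1.19 lies at its upper edge beside Zfp948 at 1.14.

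These 3 calls are 1.22% of the members, beside 0.152% of all 9219 rows at the same level that were called, and of these rows 0.0759% were called higher and 0.0759% lower. Since the members were chosen with these calls known, nothing is read from these shares. Without them the other 242 members ran from -1.94 to 1.28 in log2 fold change in the authors' deposited table, and none was called. Of the members 8 had an absolute log2 fold change of 1 or more, 3.27% against 2.05% of all rows at that level. Without Zfp318, Zfp120 and Zfp146, which were selected on these values, it was 5 of 242, or 2.07%. The middle 50% of members lay between -0.14 and 0.37.

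Unadjusted p was under 0.05 for 21 members, 8.57%, against 5.88% of all rows at a log2 CPM of 3 or more. Of the 21, 15 were higher in shNat14 and 6 lower. The shares were 6.12% and 2.45% of members, against 3.79% and 2.09% of all rows. Without Zfp318, Zfp120 and Zfp146 there were 18 of 242 (7.44%), with 5.37% higher and 2.07% lower, so that the lower share was that of all rows. The members' median log2 fold change was 0.12 and that of all rows at the same level 0.04.

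A pair of members came close to the threshold. The KRAB gene Zfp948 stood at 1.14 in the authors' deposited table (adjusted p = 0.0522) with an implied standard error of 0.29, and the KRAB gene Zfp811 at -1.94 (adjusted p = 0.0565) with one of 0.50. In size the value of Zfp811 exceeds that of Zfp120, and that of Zfp948 is close below it. Next by p among the positive ones came Zfp708 at 1.23, Zfp943 at 0.83, Zfp40 at 0.68, Zfp386 at 0.80, Zfp367 at 1.28, Zfp800 at 0.76 and Zfp949 at 0.74 in the authors' deposited table, with adjusted p from 0.252 to 0.841. On the negative side Zfp706 followed at -0.65, then Zfp937 at -0.59, Zfp511 at -0.62, Zfp710 at -0.72, Zfp536 at -1.07, Zfp759 at -0.95 and Zfp784 at -0.57, with adjusted p from 0.794 to 1 in the authors' deposited table.

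How large a difference could be called depended on level. The largest p that was called in the authors' deposited table was 7.65e-05. At the median implied standard error of 0.42 of the 103 members with a log2 CPM of 3 to 5, that p needs a 3.14-fold difference. For the 40 members at a log2 CPM of 7 or more the median implied standard error was 0.28 and the difference needed 2.18-fold. At those errors a smaller difference would not have been called. A total of 224 members had an adjusted p of 1.

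The 5 members of highest level were Zfp706, Zfp932, Zfp68, Zfp238 and Zfp260, with mean log2 CPM of 9.37, 9.36, 9.33, 9.28 and 9.17 in the authors' deposited table. Their log2 fold changes there were -0.65, 0.44, 0.44, 0.49 and 0.29. None was called, beside 0.152% of all rows at a log2 CPM of 3 or more, so nothing is read from this. Zfp238, now Zbtb18, is a repressor that cortical neurons need for their development. At the limit of level, Zfp687 (log2 CPM 3.01), Zfp536 (3.04) and Zfp407 (3.11) were just inside with log2 fold changes of -0.29, -1.07 and -0.07 in the authors' deposited table. Zfp78 (2.998), Zfp651 (2.97) and Zfp653 (2.95) were just outside it, at 0.94, -0.03 and 0.11.

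No member listed for a role in neural development was called, beside 0.152% of all rows at a log2 CPM of 3 or more. Of the 12 numbered Zfp genes in that list 9 were members, with a median log2 fold change of -0.10 and 0 at unadjusted p under 0.05. Among all rows at a log2 CPM of 3 or more it was 5.88%, so nothing is read from these counts in so short a list. Zfp238 stood at 0.49, Zfp335, a gene of primary microcephaly, at -0.10, Zfp423, a factor of cerebellar and olfactory development, at 0.02, Zfp521 at -0.19, Zfp462 at 0.18 and Zfp488, an oligodendrocyte factor, at -0.11 in the authors' deposited table. The remaining 3 were Zfp292 at 0.35, Zfp704 at -0.11 and Zfp536, already given.

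Chromatin and promoter factors had 14 members among the 18 listed, with a median of 0.09. None was called, beside 0.152% of all rows at a log2 CPM of 3 or more, so nothing is read from this. Zfp57, the KRAB protein that keeps imprints methylated, stood at 0.36 at a log2 CPM of 9.04 in the authors' deposited table (p = 0.287). Zfp281, a factor of pluripotent cells, stood at 0.55 (p = 0.0481) in the authors' deposited table. It was the single member of this list at unadjusted p under 0.05, or 7.14%, against 5.88% of all rows at a log2 CPM of 3 or more. Zfp143, an activator of small nuclear RNA genes, stood at -0.06, Zfp148 at 0.21 and Zfp711, an X-linked gene of intellectual disability, at 0.49 in the authors' deposited table. The others of this list ran from -0.44 for Zfp219 to 0.44 for Zfp932.

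Of 11 listed genes for RNA, ribosome and spindle proteins 7 were members, with a median log2 fold change of 0.14. Zfp706, a small protein with 1 finger in 76 codons, was the single one at unadjusted p under 0.05 (p = 0.0185 in the authors' deposited table). That is 14.3% of this short list, against 5.88% of all rows at a log2 CPM of 3 or more, and nothing is read from 1 gene. Zfp207, which loads the spindle checkpoint protein Bub3 on kinetochores, stood at 0.20, Zfp106, an RNA-binding protein, at -0.02, Zfp346, which binds double-stranded RNA, at 0.20 and Zfp326 at 0.45 in the authors' deposited table.

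The corepressor genes through which KRAB fingers act were listed too. Of 26, none was called, beside 0.152% of all rows at a log2 CPM of 3 or more. The HP1 gene Cbx3, at 0.77 in the authors' deposited table (p = 0.0438), was the single one at unadjusted p under 0.05. That is 3.85% of the list, against 5.88% of those rows, so nothing is read from these counts. The median log2 fold change of the list was 0.11. Trim28 stood at -0.31, Setdb1 at 0.39, Cbx1 at 0.30, Cbx5 at -0.12 and Mphosph8, of the HUSH silencing complex, at 0.47 in the authors' deposited table. The values of the list ran from -0.47 for Dnmt3b, at a log2 CPM of 1.41, to 0.92 for Suv39h2, at 2.99. Both of these levels are below the limit of 3.

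Members with a KRAB box leaned to positive fold changes. Of the 137, 99 (72.3%) had a log2 fold change above 0 in the authors' deposited table, with a median of 0.20. Without a KRAB match it was 53 of 107 (49.5%), with a median of -0.02. Among all rows at a log2 CPM of 3 or more 54.2% lay above 0. Unadjusted p was under 0.05 in 10 KRAB members that were higher and 2 that were lower, and in 5 and 4 of the others. These are 7.30% and 1.46% of KRAB members and 4.67% and 3.74% of the others, beside the 3.79% and 2.09% of all rows. The counts include the genes selected on these values, with Zfp120 among the 10, Zfp318 among the 5 and Zfp146 among the 4. Genes are not independent replicates and clustered genes share much, so this lean is given as counts without a test.

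**Figure D2:**
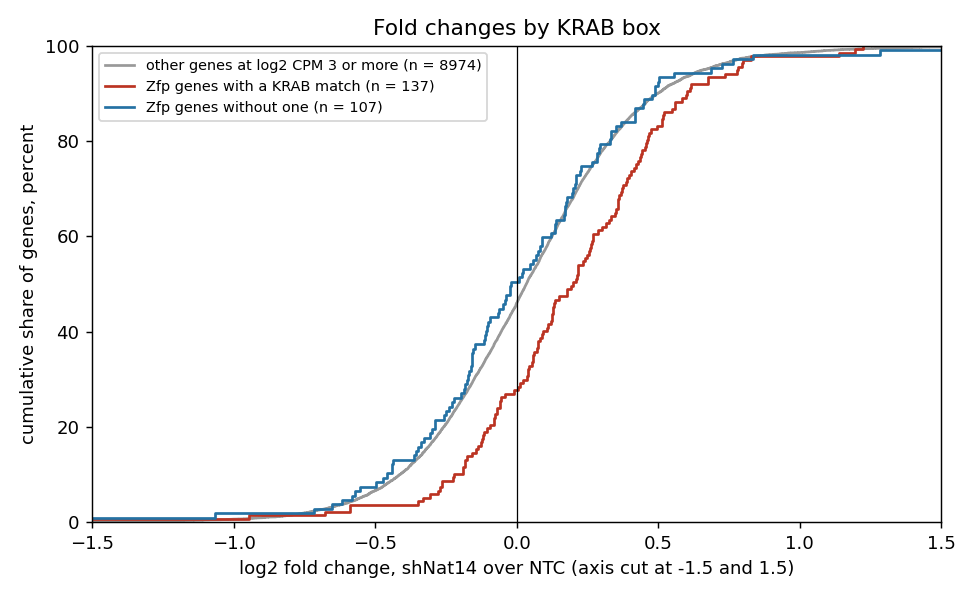
Cumulative share of genes (percent) by log2 fold change (shNat14 over NTC) in the authors' deposited table for 137 members with a KRAB match (red), 107 without (blue) and 8974 other genes at a log2 CPM of 3 or more (grey), with the axis cut at -1.5 and 1.5. The red curve lies to the right of the other two through the middle of the range, with medians of 0.20 for red, -0.02 for blue and 0.03 for grey.

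Level moved with the fold change as well. Across the 245 members Spearman's rho between log2 fold change and mean log2 CPM was 0.31, as a description over genes of the same libraries, and across the 8974 other rows it was 0.07. At a log2 CPM of 3 to 5 the median log2 fold change was 0.13 for KRAB members, -0.10 for members without a match and 0.01 for other rows in the authors' deposited table. From 5 to 7 these medians were 0.12, -0.02 and 0.02, and at 7 or more they were 0.41, 0.25 and 0.11. In the highest class 23 of 25 KRAB members and 12 of 14 members without a match were above 0, against 63.3% of other rows. The KRAB members thus had the highest median in each class of level, while at high level the other members were positive too. Between log2 fold change and the number of fingers rho was 0.06 over 244 members.

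By chromosome the members were spread over 20 chromosomes, with 53 on chromosome 7 and 36 on chromosome 17. On chromosome 17, where Zfp318 lies, 29 of 36 had a positive log2 fold change, with a median of 0.33 in the authors' deposited table. The 29 include Zfp318, which was selected on its fold change. Among 392 other genes of chromosome 17 at the same level the median was -0.06 and 43.9% were above 0. On chromosome 7 30 of 53 were positive with a median of 0.07, and on chromosome 13 16 of 20 with a median of 0.27. Other chromosomes leaned the other way. Examples are chromosome 15 with 1 of 7 positive (median -0.22), X with 1 of 5 (-0.19) and chromosome 6 with 6 of 15 (-0.06).

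**Figure D3:**
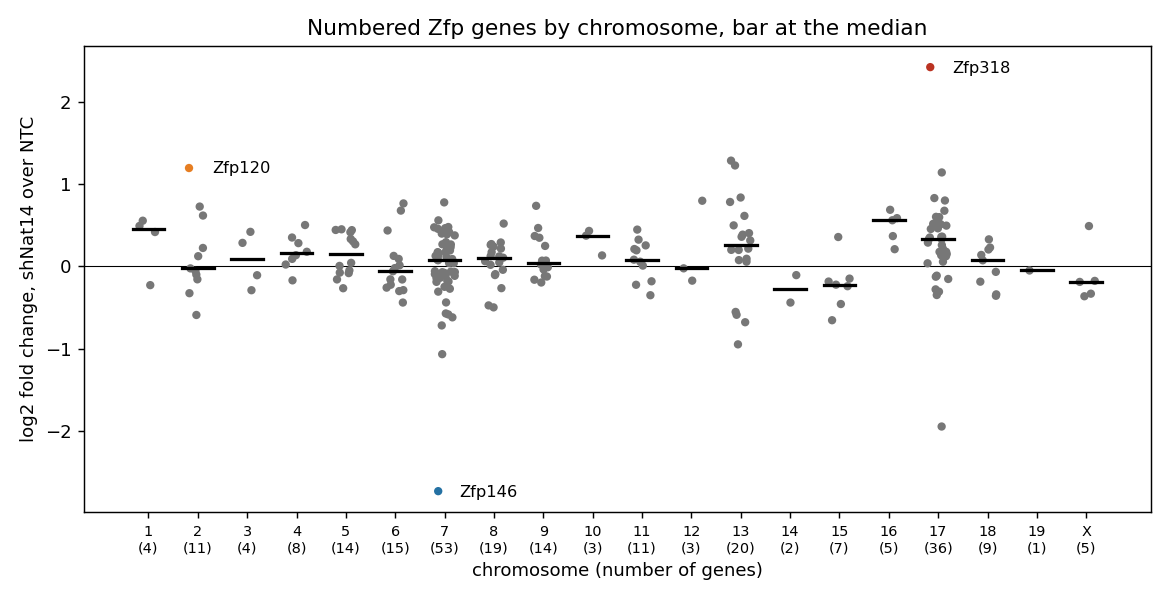
Log2 fold change (shNat14 over NTC) of each of the 245 numbered Zfp genes in the authors' deposited table by chromosome, with the number of genes under each and a bar at the median. Chromosome 17 has 29 of 36 genes above 0 with Zfp811 at -1.94 as the exception in size, and Zfp318, Zfp120 and Zfp146 lie on chromosomes 17, 2 and 7.

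A pair of gene clusters make up most of the chromosome 17 members. From Zfp160 to Zfp40 there were 18 members, of which 16 had positive values, with a median of 0.46 and a range from -0.31 to 1.14 in the authors' deposited table. Zfp948 at 1.14, Zfp943 at 0.83, Zfp40 at 0.68 and Zfp946 at 0.60 were the 4 at unadjusted p under 0.05, 22.2% of these 18, against 5.88% of all rows and 6.38% of the other chromosome 17 rows at a log2 CPM of 3 or more. From Zfp871 to Zfp101 there were 10 members, 9 of them positive, with a median of 0.25. Zfp811 at -1.94 was the exception, between Zfp871 at 0.12 and Zfp799 at 0.15 in the authors' deposited table. Zfp318 belongs to neither cluster. The ends of both clusters were set by hand after the values were seen, without a fixed rule for gaps. The next members beyond them, Zfp13 at -0.35 and Zfp414 at -0.15 in the authors' deposited table, were left out. They lie 6 and 4 genes further on, while steps of 6 genes to Zfp677 and 9 genes to Zfp81 were kept inside. The counts of positive values depend on these ends. Leaving out chromosome 17, 72 of 105 KRAB members (68.6%) were positive, with a median of 0.13.

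The genes beside the 3 called members did not share their direction as a group. Among the 3 protein-coding genes on each side of Zfp318, Crip3, next to it, stood at 1.59 at a log2 CPM of 2.26 (p = 0.0192, adjusted p = 0.804) in the authors' deposited table. Abcc10, on its other side, stood at -0.21, Dlk2 at 0.07, Tjap1 at -0.28 and Ttbk1 at -1.31 in the authors' deposited table, all but Tjap1 below the level of 3. Slc22a7 was close to the lowest level of the table.

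Zfp120 lies in a cluster of its own kind on chromosome 2. Gm14139, next to it, stood at -2.93 at a very low level and Zfp937, the next again, at -0.59 (p = 0.047) in the authors' deposited table, both opposite in sign to Zfp120. Gm14124 stood at 0.46, Syndig1 (listed as Tmem90b) at -0.33 and Cst3, cystatin C, at -0.32 in the authors' deposited table, and Cst10 was at the lowest level.

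Zfp146 has Zfp382, Zfp260 and Zfp566 on one side, which the authors' deposited table lists at 0.85, 0.29 and 0.04. Cox7a1, Capns1 and Tbcb on the other side stood at -0.53, -0.09 and -0.11. None of the 6 was called, beside 0.152% of all rows at a log2 CPM of 3 or more, so nothing is read from this. Those of the 6 at that level were not beyond 0.29 in either direction.

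**Figure D4:**
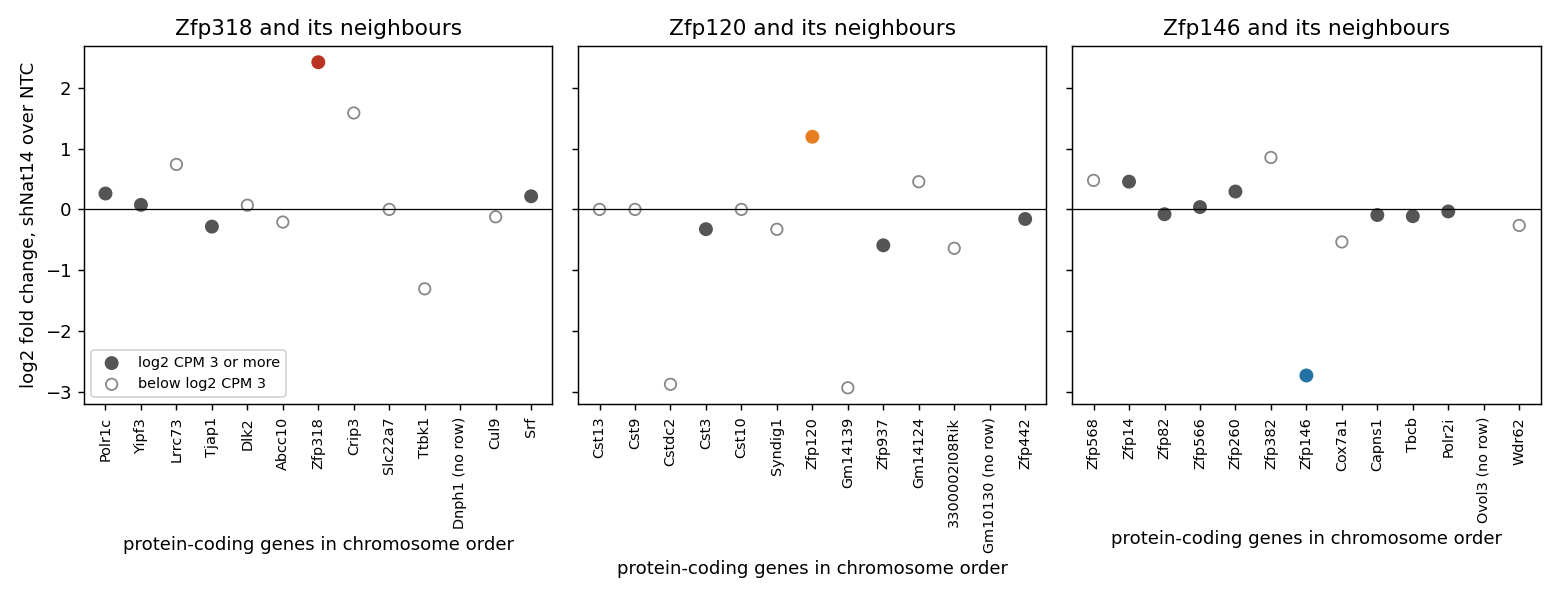
Log2 fold change (shNat14 over NTC) in the authors' deposited table for Zfp318, Zfp120, Zfp146 and the 6 protein-coding genes on each side of them in RefSeq order, filled where the log2 CPM was 3 or more and open below it. Zfp146 at -2.73 stands apart from its neighbours, which run from -0.53 for Cox7a1 to 0.85 for Zfp382. Zfp120 at 1.19 has Zfp937 at -0.59 near it, and Zfp318 at 2.42 has the low-level gene Crip3 at 1.59 beside it.

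Where genes share sequence, within the family or with any other annotated gene, reads can fit more than 1 gene. For each member the longest coding transcript in GENCODE M21 was cut into 50-base stretches. The share of them that also occur in a transcript of another gene, on either strand, was computed. Genes of any kind counted, also those whose annotation overlaps that of the member, so the share does not measure likeness within the family. The median was 0.65%, 89 members shared none, 52 shared over 10% and 12 over 50%. The share was 0.09% for Zfp318, 0.96% for Zfp120 and 1.01% for Zfp146, so at this length nearly all of each transcript was its own. The sources used here give neither the read length nor the authors' handling of reads with several matches.

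The longest stretches that Zfp120 shares with Zfp345 and Zfp146 with Zfp260, each the gene with which it shares most, are shown because they mark where reads could be exchanged. The first lies in an exon at chr2:150119877-150119946 on the minus strand of GRCm38 and encodes part of the KRAB box. The second lies in an exon at chr7:30161754-30161822 on the minus strand and covers most of the last finger.
Zfp120 and Zfp345: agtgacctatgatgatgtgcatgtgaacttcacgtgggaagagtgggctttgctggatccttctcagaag
Zfp146 and Zfp260: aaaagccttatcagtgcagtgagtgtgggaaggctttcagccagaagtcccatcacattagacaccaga

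The closest relatives by coding sequence were compared next. By the share of 12-base words in common, the closest to Zfp120 were Zfp442 (35.4%), Zfp345 (29.4%) and Zfp937 (24.4%), which the authors' deposited table lists at -0.16, -1.27 and -0.59, Zfp345 at a low level. Closest to Zfp146 were Zfp260 (16.4%), Zfp74 (10.98%) and Zfp27 (9.25%), listed at 0.29, 0.27 and -0.14 in the authors' deposited table. No call was made among these 6 relatives, beside 0.152% of all rows at a log2 CPM of 3 or more, so nothing is read from this. For Zfp318 no other numbered Zfp gene shared more than 0.45% of words.

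Among the members just below the called ones, Zfp948 (0.12%) and Zfp811 (0.66%) also shared few stretches. All 50-base stretches of Zfp708 occur in Gm28557 as well, 31.5% of those of Zfp937 occur in other genes, mostly in Zfp442, and 15.9% of those of Zfp367 occur in Gm47513. For Zfp784 it was 94.7%, in Zfp865, and for Zfp511 14.3%, in Tubgcp2. Whether this moved their values was not tested. Across 244 members Spearman's rho between absolute log2 fold change and the share was -0.03, as a description. Members sharing over 10% had a median log2 fold change of 0.05 and the 192 that shared less had 0.14. All 3 called genes were in the latter group.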

How the data were processed

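Sample titles gave each library's group. The authors deposited a table of their own comparison with 21937 symbols. Per the file headers its columns are the log2 fold change, the log2 CPM averaged over libraries, the p-value, and the adjusted p-value (FDR). The deposited adjusted p-values equal a Benjamini-Hochberg adjustment over all rows to within 4.05e-05. Tools listed in the submitters' processing notes, with no roles, are DESeq, HTSeq 0.5.4p1, TopHat2 2.0.8 and SAMtools 0.1.19, and the build listed is hg19, which is human. The build behind the mouse symbols and the test behind the p-values are therefore unresolved. Gene models and sequences come from GENCODE M21 (GRCm38). Gene order comes from RefSeq for GRCm38.p6, where 235 members matched by symbol and 10 by an older symbol.

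Calls used the authors' adjusted p under 0.05. The members and all lists were chosen with earlier results of these data known, and the KRAB, chromosome and sequence comparisons after the values were seen. Named genes are Nat14, the 3 singled out, the 8 others of smallest p in each direction, the 5 of highest level, 3 on each side of the level limit, listed genes, neighbours and closest relatives. Other members of the chromosome 17 clusters were named after their values were seen. A KRAB box was searched for by a pattern in the first 250 translated codons of any coding transcript, which misses diverged boxes. Fingers were counted in the longest coding transcript. Adjustment and pattern search were tested on simulated data. No library-level test was possible. Python 3.11.15, pandas 2.3.3, numpy 2.4.6 and scipy 1.17.1 were used.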

Additional observations from a re-analysis of the deposited data

How the results depend on the processing

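The count of 3 called members was 5 at adjusted p under 0.1, where Zfp948 and Zfp811 join. It was 3 or 2 under each of the other alternatives tried, which were a stricter threshold, Bonferroni correction, re-adjustment over rows at a log2 CPM of 3 or more, other level limits, symbols with a letter added and a fold change minimum. Zfp120 was the call that was lost, after Bonferroni correction of the authors' deposited p-values and at a threshold of 0.01. Zfp146 is left out where the level limit is a log2 CPM of 4. Members at unadjusted p under 0.05 numbered 20 to 25. The median log2 fold change of 0.12 was 0.091 with a level limit of 2, 0.139 with one of 4, 0.073 without one, and 0.086 after subtracting the median of all rows at a log2 CPM of 3 or more. After the same centring, an alternative chosen after seeing the data, 96 of 137 KRAB members and 50 of 107 others were positive. No paired analysis was possible because single libraries have no values in the deposited table, and leaving out libraries was not run for the same reason. The depth per library is unknown.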

Other observations

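Other zinc finger families at a log2 CPM of 3 or more held no call, beside 0.152% of all rows at that level, so nothing is read from this. Of 12 Zscan and Zkscan genes, which carry a SCAN domain, 3 had a positive log2 fold change in the authors' deposited table, with a median of -0.12. These 12 genes were not searched for a KRAB box, so the lean of KRAB members given above does not cover any KRAB genes among them. Of 20 Zbtb genes, which carry a BTB domain, 14 were positive with a median of 0.06, and of 9 Klf genes 7 were positive with a median of 0.12. The 87 numbered Zfp genes below a log2 CPM of 3 had a median of -0.03, with 40 positive values. None of the 87 was called, beside 34 of all 21937 rows, so nothing is read from this. These families were picked by symbol after the values of the numbered genes were seen, and none of their differences was tested.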
